A study of Mus musculus with 16 samples.

Results

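The T and B lymphocyte genes described here are 9 of the 24411 genes listed for this series, taken by symbol from the count and TPM files. They are the CD3 genes Cd3d, Cd3e and Cd3g, the T cell surface genes Cd2 and Cd5, the co-receptor genes Cd4, Cd8a and Cd8b1, and the B cell gene Cd79b. Their RNA was measured in bulk spinal cord of 16 female C57BL/6J mice, in a 5 mm section around a mid-thoracic injury site or the matching site of uninjured mice. In the SCI + Atorvastatin group (n = 7), mice were injured at 12 wk of age by a 0.25 mm lateral compression and received 10 mg/kg atorvastatin daily for 4 wk, beginning 2 wk after injury. The SCI + Vehicle group (n = 7) had the same injury and received the solvent alone (dimethyl sulfoxide, polyethylene glycol, Tween and saline) on the same days. All SCI mice were anesthetized with xylazine and ketamine for the injury and were killed 6 wk after it. The Uninjured Control group (n = 2), labelled with the same age of 12 wk, had neither injury nor injections. By the paper's ages these mice were younger at isolation than the SCI mice. A comparison with them thus covers injury, laminectomy, anesthesia, antibiotic, pain relief, solvent and age at isolation at once. All mice were perfused with saline, a step meant to clear blood from the vessels. The paper's methods give another age for the uninjured mice and a later day of isolation than the labels do.

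T lymphocytes recognize antigen through the T cell receptor, whose clonal chains are carried to the surface and coupled to signalling by the invariant CD3 chains. CD4 binds MHC class II on helper T cells and CD8 binds MHC class I on cytotoxic T cells, and B cells signal through CD79A and CD79B. In the healthy spinal cord lymphocytes are rare, and after injury T cells enter the lesion and can remain there through the chronic stage. In bulk tissue, fewer cells of a type and less RNA per cell cannot be told apart.

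Libraries held 14823292 to 25579826 counts on genes, with the lowest total in SCI + Vehicle replicate 4. A count of 0 allows up to 3 counts, which is 0.117 to 0.202 CPM (counts per 1000000 counts of the library). Such limits cover counting error only, because reads that carry no molecular identifiers cannot be counted as separate molecules. The Uninjured Control libraries stood apart before any lymphocyte gene was considered. They had a count in 12732 and 12356 genes, against 16399 to 19338 in the SCI mice. Genes were grouped by their mean over the SCI mice. Of 2079 genes between 5 and 20 counts, 86.8% had no count in either control, and of 1534 genes between 20 and 50 counts 71.6% had none. The 9 lymphocyte genes lie in these ranges, 3 in the lower and 6 in the higher. Ptprc, the pan-leukocyte antigen CD45, had 0 and 175 counts in the controls and 731 to 2111 in the SCI mice. The 10 genes of a liver list summed to 721 and 4320 CPM in the controls and to at most 7.30 CPM in any SCI mouse. After perfusion, a list of 5 red blood cell genes still summed to 395 and 853 TPM in the controls. It summed to 567 to 1892 TPM in atorvastatin mice and 60.3 to 3672 TPM in vehicle mice. In CPM the list gave 0 and 0.805 in the controls, 10.4 to 19.6 in atorvastatin mice and 6.27 to 49.1 in vehicle mice. Of its 5 genes, 4 had 0 counts in every mouse, so that the 2 units do not give the same picture of the controls. Whether blood added to the lymphocyte gene counts was not tested. Neuron, oligodendrocyte and astrocyte lists were high in every library, so that the labelled tissue was present. What part these features have in the contrasts with the controls was not tested.

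**Figure D1:**
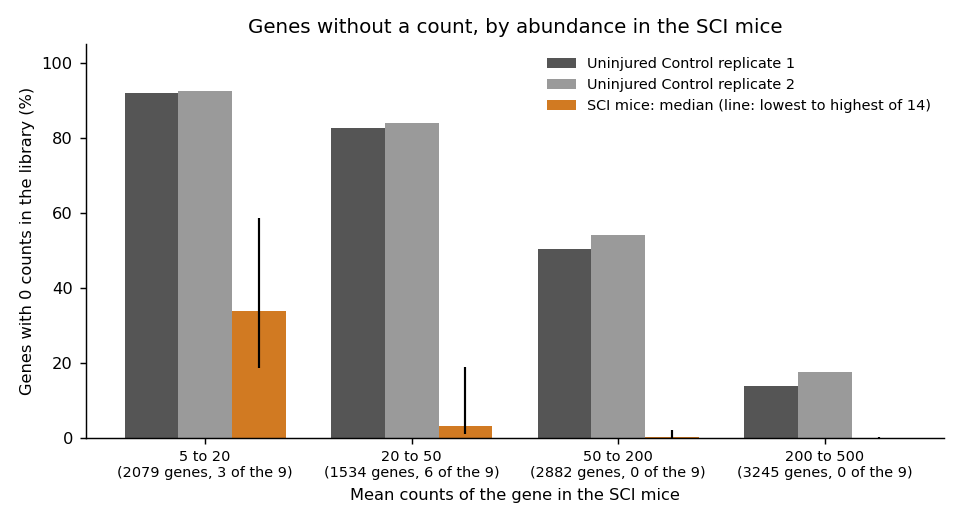
Share of genes without a count (y axis, %) among all genes, grouped by mean counts in the 14 SCI mice (x axis). Grey bars are the Uninjured Control libraries, and orange bars the median of the SCI libraries with a line from the lowest to the highest. In the range of 20 to 50 counts, where 6 of the 9 lymphocyte genes lie, the controls lack 82.6% and 83.9% of genes and the median SCI mouse 3.13%.

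The lymphocyte genes had few counts in most mice. In the SCI + Atorvastatin group the 9 genes together had 131 to 289 counts per library (median 183), or 8.67 ± 2.76 CPM (SD, n = 7). In the SCI + Vehicle group they had 15 to 539 counts (median 177), or 8.22 ± 7.54 CPM (SD, n = 7). The group means were close, while the vehicle mice reached both below and above every atorvastatin mouse. The controls had 0 and 290 counts, and all 290 were Cd5. A count of 0 was found for 8 of the 63 gene values in the SCI + Atorvastatin group (12.7%), 22 of 63 in the SCI + Vehicle group (34.9%) and 17 of 18 in the controls (94.4%). Genes with at least 1 count numbered 5 to 9 per atorvastatin mouse and 3 to 9 per vehicle mouse. Vehicle replicates 4, 5 and 7 each had counts in 3 of the 9 genes. Replicate 4 is also the shallowest library, and replicate 7 had the fewest genes with a count of the SCI mice (16399). Replicate 7 lacked 58.6% of all genes at 5 to 20 mean counts and 18.8% at 20 to 50. These shares were the highest of the SCI mice, whose medians were 33.8% and 3.13%. What part this has in the 0 counts of the 9 genes was not tested.

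**Figure D2:**
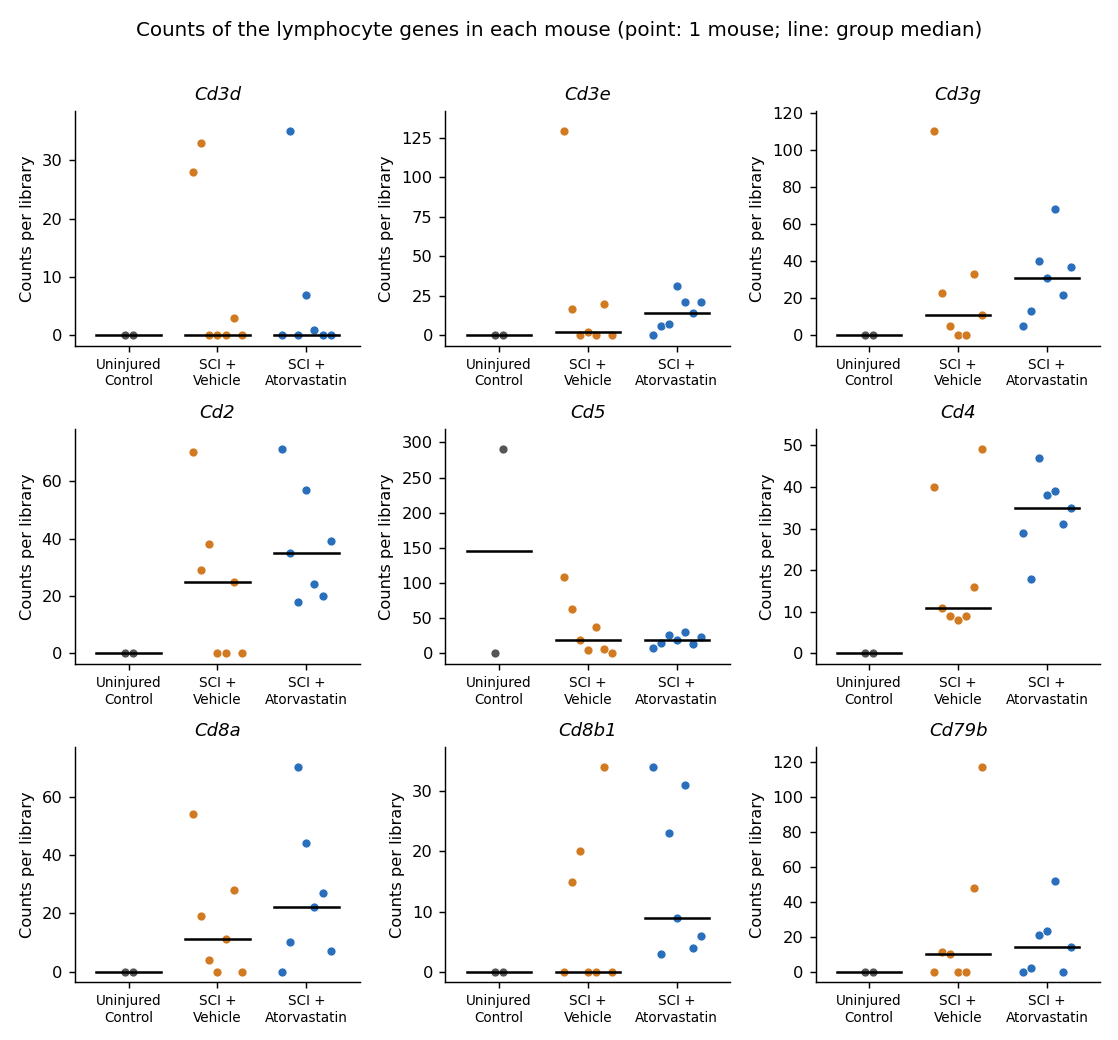
Counts per library (y axis) of each lymphocyte gene in each mouse, with a panel per gene, a point per mouse and a line at the group median. Cd4 has counts in all 14 SCI mice, Cd3d in 6, and the only gene with a count in a control is Cd5 (290 counts in replicate 2).

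The CD3 genes encode the delta, epsilon and gamma chains that couple the T cell receptor to signalling. In GRCm38 they lie side by side at chr9:44969572-44980431 (Cd3g, minus strand), chr9:44981786-44987339 (Cd3d, plus strand) and chr9:44998740-45009627 (Cd3e, minus strand). The gap between Cd3g and Cd3d is 1354 bp and that between Cd3d and Cd3e is 11400 bp. The coordinates cover whole genes with exons, introns and UTRs, and Cd3e overlaps 2 other gene models, Gm48719 on the plus strand and Gm48720 on its own strand. Neither model is listed in the files, and whether their reads entered the Cd3e counts was not tested. Promoter sequences from RefSeq (GRCm38.p6, 250 bases before to 50 after the start) were found for 5 of the 9 genes, namely the CD3 genes, Cd5 and Cd8a. Those of the CD3 genes are shown because these neighbouring genes are read together below. Capitals mark CACCTG, an E-box of the kind bound by E proteins in lymphocytes.

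Cd3g, chr9:44980382-44980681, minus strand: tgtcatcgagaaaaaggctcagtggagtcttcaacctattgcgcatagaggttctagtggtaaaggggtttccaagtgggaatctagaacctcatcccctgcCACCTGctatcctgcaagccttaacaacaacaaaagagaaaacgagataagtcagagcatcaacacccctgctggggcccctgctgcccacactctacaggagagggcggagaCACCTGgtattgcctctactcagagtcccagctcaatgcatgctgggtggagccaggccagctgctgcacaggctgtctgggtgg
Cd3d, chr9:44981536-44981835, plus strand: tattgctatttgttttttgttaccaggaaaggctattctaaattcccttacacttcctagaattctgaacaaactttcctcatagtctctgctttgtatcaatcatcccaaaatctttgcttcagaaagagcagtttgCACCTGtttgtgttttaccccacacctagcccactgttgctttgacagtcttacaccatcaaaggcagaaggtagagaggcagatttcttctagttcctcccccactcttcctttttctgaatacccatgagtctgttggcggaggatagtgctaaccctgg
Cd3e, chr9:45009562-45009861, minus strand: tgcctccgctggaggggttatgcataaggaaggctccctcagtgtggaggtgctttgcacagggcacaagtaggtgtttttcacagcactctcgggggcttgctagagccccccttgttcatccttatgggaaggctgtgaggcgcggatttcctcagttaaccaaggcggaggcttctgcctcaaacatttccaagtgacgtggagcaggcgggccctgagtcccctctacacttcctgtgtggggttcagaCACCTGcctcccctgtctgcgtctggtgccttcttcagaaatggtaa

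CACCTG or its other strand CAGGTG was found in 20.2% of 32851 promoters of this length. Its first base was at -148 and -35 from the start site in Cd3g, at -112 in Cd3d and at 4 in Cd3e. Cd5 held it at -174 and -69, and Cd8a did not hold it. The ETS letters GGAAGT or ACTTCC, found in 23.8% of promoters, were at -199 in Cd3d, at -18 in Cd3e and at -51 in Cd5. Neither the RUNX letters TGTGGT or ACCACA (16.8% of promoters) nor TATAAA or TTTATA (13.6%) were in any of the 5. No match overlapped another, and the letters were chosen after these sequences had been seen. The matches describe the sequence and are not evidence of binding.

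Cd3g, the gamma chain, had 5, 13, 40, 31, 68, 22 and 37 counts in atorvastatin replicates 1 to 7 and 110, 23, 5, 0, 0, 33 and 11 in vehicle replicates 1 to 7. Every atorvastatin mouse had counts, vehicle replicate 1 was the highest of all mice, and the groups overlapped. Cd3e, the epsilon chain, had 0, 6, 7, 31, 21, 14 and 21 counts under atorvastatin and 129, 17, 0, 2, 0, 20 and 0 under vehicle. Its vehicle mean (1.05 ± 2.07 CPM, SD, n = 7) rested on replicate 1, while 3 vehicle mice had no count. Cd3d, the delta chain, had 0, 35, 0, 7, 1, 0 and 0 counts under atorvastatin and 28, 33, 0, 0, 0, 3 and 0 under vehicle. Few mice carried the Cd3d counts, with a group median of 0 in both SCI groups. None of the 3 genes had a count in a control, although of all genes in their abundance ranges most had none there either.

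The CD3 counts summed to 5, 54, 47, 69, 90, 36 and 58 in atorvastatin replicates 1 to 7 and to 267, 73, 5, 2, 0, 56 and 11 in vehicle replicates 1 to 7. Atorvastatin replicate 1 apart, the atorvastatin mice lay between 36 and 90 counts, as did vehicle replicates 2 and 6, while vehicle replicate 1 was above that range and the other 4 vehicle mice were below it. As levels, these sums were 2.22 ± 1.04 CPM under atorvastatin and 2.57 ± 4.22 CPM under vehicle (SD, n = 7 each).

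Cd2, an adhesion molecule of T and NK cells, lies at chr3:101275899-101287939 on the minus strand. It had 71, 35, 18, 57, 24, 20 and 39 counts under atorvastatin, 70, 29, 38, 0, 0, 25 and 0 under vehicle, and none in the controls. All atorvastatin mice had at least 18 counts, a level that 4 of the 7 vehicle mice also reached. Cd5, a scavenger-receptor family protein that dampens T cell receptor signals and is also found on some B cells, lies at chr19:10717116-10739002 on the minus strand. It had 8, 15, 26, 19, 31, 13 and 24 counts under atorvastatin and 108, 63, 19, 5, 37, 6 and 0 under vehicle. In the controls Cd5 had 0 counts in replicate 1 and 290 in replicate 2, the highest value of any of the 9 genes in any mouse. No other of the 9 genes had a count in that control. A count of 0 in control 1 with at least 290 counts in control 2 was found for 235 of the 24411 genes (0.963%), and the converse for 313 (1.28%).

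Cd4 encodes the co-receptor of helper T cells and is also expressed by some dendritic cells and macrophages. The gene lies at chr6:124864692-124888221 on the minus strand. It had 29, 18, 47, 38, 39, 31 and 35 counts under atorvastatin and 40, 11, 9, 8, 9, 16 and 49 under vehicle. Alone among the 9 genes, Cd4 had counts in all 14 SCI mice. Cd8a, chr6:71373427-71379173, and Cd8b1, chr6:71322788-71337494, encode the chains of the CD8 co-receptor and lie 35932 bp apart on the plus strand. Cd8a had 0, 10, 70, 44, 22, 27 and 7 counts under atorvastatin and 54, 19, 4, 0, 11, 28 and 0 under vehicle. Cd8b1 had 34, 3, 23, 9, 31, 4 and 6 counts under atorvastatin and 0, 15, 20, 0, 0, 34 and 0 under vehicle. The CD8 chains did not follow each other closely. Atorvastatin replicate 1 had 34 counts of Cd8b1 and none of Cd8a, and vehicle replicate 1 had 54 of Cd8a and none of Cd8b1. Neither Cd4 nor a CD8 gene had a count in a control.

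Cd79b, the beta chain of the B cell receptor signalling pair, lies at chr11:106311341-106314762 on the minus strand. It had 0, 2, 21, 23, 52, 0 and 14 counts under atorvastatin, 0, 11, 10, 0, 0, 48 and 117 under vehicle, and none in the controls. Vehicle replicate 7, the highest for this B cell gene, had 11 counts over the CD3 genes, and vehicle replicate 1, the highest for the CD3 genes, had none of Cd79b. Cd79a, the partner chain, had 3 counts in vehicle replicate 7 and 37 in vehicle replicate 1, the reverse of Cd79b. Cd79b had no count in 5 of the 14 SCI mice, and 1.04% of the 1534 genes in its abundance range (20 to 50 counts) had at least as many such mice. Over the 6 lymphocyte genes in that range 16.7% of SCI values were 0, against 5.13% over all its genes. Over the 3 in the lower range the shares were 38.1% and 34.2%.

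**Figure D3:**
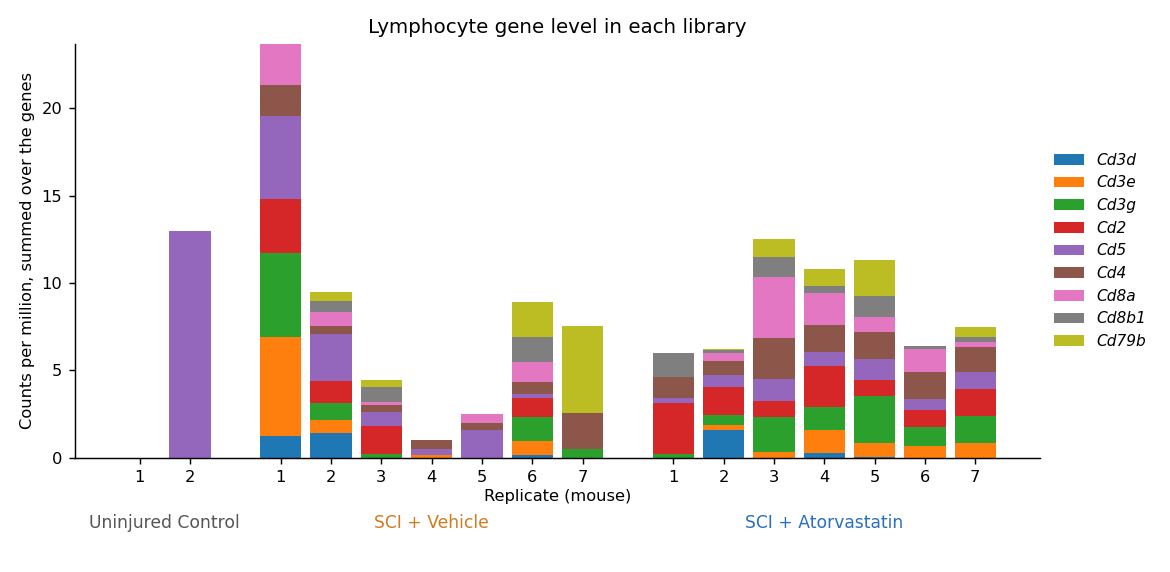
Level of the 9 lymphocyte genes in each library, in CPM stacked by gene (y axis), with a bar per mouse. Vehicle replicate 1 reaches 23.7 CPM and vehicle replicate 4 has 1.01 CPM, atorvastatin mice lie between 6.01 and 12.5 CPM, and the bar of control replicate 2 is all Cd5.

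Levels can be compared between genes only per length, for which the authors' TPM were used. Over the 14 SCI mice the mean TPM was 3.24 ± 3.09 for Cd2, 3.00 ± 3.61 for Cd3g, 1.88 ± 3.01 for Cd79b and 1.16 ± 2.00 for Cd3e (SD). Below these were Cd8b1 (0.899 ± 1.12), Cd4 (0.828 ± 0.542), Cd8a (0.734 ± 0.832), Cd5 (0.616 ± 0.743) and Cd3d (0.269 ± 0.563). No neighbours in this order differed by more than the smaller of their SDs. TPM and counts were not in a fixed ratio. For a single gene the TPM per CPM varied between mice by 1.99-fold (Cd8a) to 11.5-fold (Cd5), and for 2223 genes of like abundance the median was 5.29-fold. A gene with counts was listed at 0 TPM in 11 of 144 values, 5 of them Cd5, and the converse did not occur. Tests were therefore run on counts, with TPM as an alternative.

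The comparison of SCI + Vehicle with Uninjured Control asks which genes changed with injury. A gene was called at an adjusted p below 0.05 (edgeR's quasi-likelihood test, Benjamini-Hochberg over all genes tested) and a log2 fold change beyond 0.322. Only Cd4 was upregulated, at least 6.36-fold higher with 8 to 49 counts per mouse against none in the controls (adjusted p = 0.0176). That is 1 of the 9 genes in the fit without a gene filter, where 23% of 20979 genes were called and 16.4% were called higher. In the fit of 16091 genes with a mean TPM above 1 in some condition, 7 of the 9 were tested and 1 was called, against 29.4% of all genes. Cd3e passed that filter through the vehicle group alone, Cd4 and Cd8b1 through the atorvastatin group alone and Cd5 through the controls alone, while Cd3d and Cd8a did not pass. Unless the unfiltered fit is named, adjusted p-values are those of the filtered fit, and for Cd4 the unfiltered fit gave 0.0232 (edgeR). The folds given as "at least" set the control at its limit of 3 counts per library and cover counting error only.

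The other 7 genes without a count in the controls did not pass in SCI + Vehicle. Cd3g (at least 7.97-fold higher, adjusted p = 0.109) and Cd79b (at least 7.96-fold, adjusted p = 0.155) had large mean differences in edgeR's test, as did Cd3e (at least 7.45-fold, adjusted p = 0.176) and Cd2 (at least 7.06-fold, adjusted p = 0.136). In each of these 4 genes 2 or 3 vehicle mice had no count, like the controls. Without vehicle replicate 1 the bounds fell to 3.59 for Cd3g, 2.00 for Cd3e and 4.60 for Cd2, and without vehicle replicate 7 that for Cd79b fell to 3.42. Cd8a was at least 5.06-fold higher (adjusted p = 0.123 in the unfiltered edgeR fit), Cd8b1 at least 2.95-fold (adjusted p = 0.217 in edgeR) and Cd3d at least 2.80-fold (adjusted p = 0.244, unfiltered edgeR fit). These bounds also fell with 1 mouse left out, to 3.10 for Cd8a (replicate 1), 1.76 for Cd8b1 (replicate 6) and 1.6 for Cd3d (replicate 2). Cd5 had a log2 fold change of -2.18 (SE 1.61, adjusted p = 0.339 in edgeR), which rests on control replicate 2. Among all 2898 genes between 5 and 50 mean SCI counts that had none in the controls, 30.6% were called, and among the 8 lymphocyte genes of that kind 1 was.

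In SCI + Atorvastatin vs. Uninjured Control, 6 of the 9 genes were upregulated in the edgeR fit without a gene filter, against 32.9% of 20725 genes called and 22.4% called higher. Cd2 was at least 11.4-fold higher (adjusted p = 0.00138), Cd4 at least 10.5-fold (adjusted p = 0.000783) and Cd3g at least 9.42-fold (adjusted p = 0.00582, edgeR). Each of these 3 had counts in all 7 atorvastatin mice and in no control. Cd8b1 was at least 4.75-fold higher (adjusted p = 0.0215), Cd3e at least 4.32-fold (adjusted p = 0.0409) and Cd8a at least 8.32-fold (adjusted p = 0.0428 in the unfiltered edgeR fit). In the unfiltered edgeR fit the adjusted p was 0.000950 for Cd4, 0.0214 for Cd8b1 and 0.0439 for Cd3e. Called in the filtered edgeR fit were 5 of the 7 tested, against 38.9% of all genes and 24.9% called higher, a count that is not independent of the filter, which Cd4 and Cd8b1 passed through this group alone. Not called were Cd79b (at least 4.75-fold higher, adjusted p = 0.103), Cd3d (at least 1.95-fold, adjusted p = 0.238, unfiltered edgeR fit) and Cd5 (log2 fold change -2.95, SE 1.15, adjusted p = 0.0661). Without atorvastatin replicate 2 the Cd3d mean was under the control limit and gave no fold, and without replicate 5 the bound for Cd79b fell to 3.14. Of all 2879 genes of 5 to 50 counts without a count in the controls 51.3% were called, and 6 of the 8 such lymphocyte genes were. In the narrower range of 20 to 50 counts 93.7% of such genes were called under atorvastatin and 71% under vehicle. Of the lymphocyte genes there, 4 of 5 and 1 of 5 were called. In the range of 5 to 20 counts the shares were 25.2% and 5.89%, with 2 of 3 and 0 of 3 lymphocyte genes called.

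Both contrasts use the same 2 control mice, so that the number of genes called in each is not a comparison of the treatments. The Cd5 contrast turned with the control left out. In these fits the spread came from the SCI group alone, and the lone control was assumed to vary like it. Without control replicate 1, the log2 fold change of Cd5 fell to -3.95 under atorvastatin and to -3.17 under vehicle (edgeR). With control replicate 2 left out, none of the 9 genes had a control count. The Cd5 value then turned positive, at 7.27 under atorvastatin and 8.0 under vehicle (edgeR). For Cd5 only these effect sizes are given, because a lone control has no spread of its own. Cd4 in SCI + Vehicle was not called when either control was left out, nor were Cd3e and Cd8b1 in SCI + Atorvastatin. Cd3e in SCI + Atorvastatin also lost its call when any of atorvastatin replicates 2 to 7 was left out, and the count of called genes then was 4 of the 7 tested.

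The direct comparison of SCI + Atorvastatin with SCI + Vehicle asks whether the treatment changed these genes. None of the 9 was called at the limit of the study, an unadjusted p below 0.001, which 0.106% of 16091 genes passed in edgeR (0.0871% without the gene filter). The 7 genes tested in the filtered fits did not reach an unadjusted p below 0.05 in edgeR, DESeq2 or limma either, nor did Cd3d and Cd8a in the unfiltered edgeR fit, the only one that held them, against 7.03% of genes in edgeR (11.9% without the gene filter), and after adjustment 0 of the 16091 genes passed. Cd4 was 1.48 ± 0.460 CPM under atorvastatin and 0.899 ± 0.710 CPM under vehicle (SD, n = 7 each). Its log2 fold change was 0.71 (SE 0.56, 95% CI -0.45 to 1.87, adjusted p = 0.818 in edgeR). All 7 atorvastatin mice lay above the vehicle median for Cd4, but vehicle replicates 1 and 7 lay among the atorvastatin mice and the ranges overlapped. Cd2 had a log2 fold change of 0.70 (SE 0.86, 95% CI -1.09 to 2.49).

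For the CD3 genes the log2 fold changes were 0.26 for Cd3g (95% CI -1.55 to 2.08), -0.74 for Cd3e (95% CI -3.05 to 1.56) and -0.48 for Cd3d (95% CI -3.75 to 2.78, unfiltered fit). For the CD8 genes they were 0.74 for Cd8a (95% CI -1.30 to 2.77, unfiltered fit) and 0.67 for Cd8b1 (95% CI -1.55 to 2.88). The values for Cd5 (-0.80, 95% CI -2.40 to 0.81) and Cd79b (-0.78, 95% CI -3.22 to 1.65) were negative. Signs were thus mixed, with 5 genes higher and 4 lower under atorvastatin. Every interval included 0 and, Cd4 and Cd5 apart, reached beyond a log2 change of 1 on both sides, so that a log2 change of 1 in either direction could not be told from none at this depth. The sign for Cd3e turned when vehicle replicate 1 was left out (log2 fold change 1.08), and that for Cd79b when vehicle replicate 7 was left out (0.45). With a mouse left out, the log2 fold change lay between 0.0024 and 1.36 for Cd3g, between -1.02 and -0.18 for Cd5, between 0.47 and 1.28 for Cd2, between 0.56 and 1.08 for Cd4 and between 0.38 and 1.39 for Cd8b1.

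**Figure D4:**
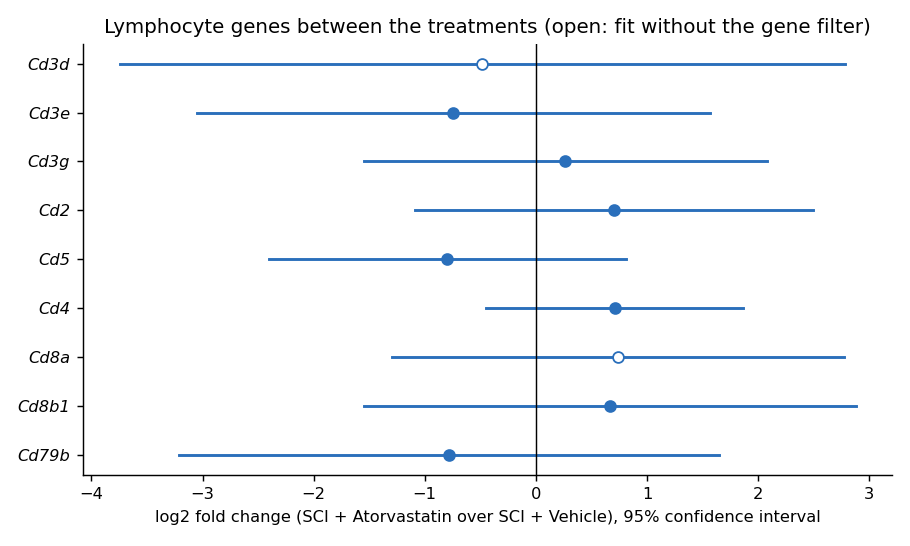
log2 fold change of SCI + Atorvastatin over SCI + Vehicle (x axis) for each lymphocyte gene, with 95% confidence intervals from edgeR's quasi-likelihood fit. Open circles mark Cd3d and Cd8a, taken from the fit without the gene filter, and every interval crosses 0.

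How the lymphocyte genes varied together was examined over the 14 SCI mice, on log2(CPM + 0.1) centred within each group, against the summed CD3 level. Of 8 relations, 2 passed a permutation test of Pearson's r with 100000 permutations within groups and adjustment over the 8. Ptprc rose with the CD3 genes (r = 0.767, p = 0.0063, adjusted p = 0.0456), with a Spearman rho of 0.666 (adjusted p = 0.0781). Cd8a did so too (r = 0.682, p = 0.0114, adjusted p = 0.0456), with a rho of 0.662 (adjusted p = 0.0781). Within groups r was 0.579 under atorvastatin and 0.842 under vehicle for Ptprc, and 0.739 and 0.702 for Cd8a. The summed microglia or macrophage list had r = 0.659 (adjusted p = 0.0638, rho = 0.701).

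The remaining lymphocyte genes had lower values, with r = 0.577 for Cd2 (adjusted p = 0.210), 0.434 for Cd5 (0.331), 0.425 for Cd4 (0.331), 0.278 for Cd79b (0.458) and 0.0944 for Cd8b1 (0.791), each p by permutation. Cd2 and Cd8b1 had opposite signs in the groups, with r = -0.606 and -0.381 under atorvastatin and 0.755 and 0.242 under vehicle, a difference that was not tested. After the mice farthest from the median on the CD3 axis, vehicle replicates 5 and 1, were left out, no relation passed by permutation, with r = 0.790 for Cd8a (adjusted p = 0.0791) and 0.701 for Ptprc (adjusted p = 0.113). The r of Cd8a was thus no lower without these mice, while its adjusted p no longer passed. Without vehicle replicate 5 alone Cd8a passed (r = 0.831, adjusted p = 0.0179 by permutation). No relations passed when atorvastatin replicate 1, 4 or 6 or vehicle replicate 1, 2, 3, 4 or 6 alone was left out.

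**Figure D5:**
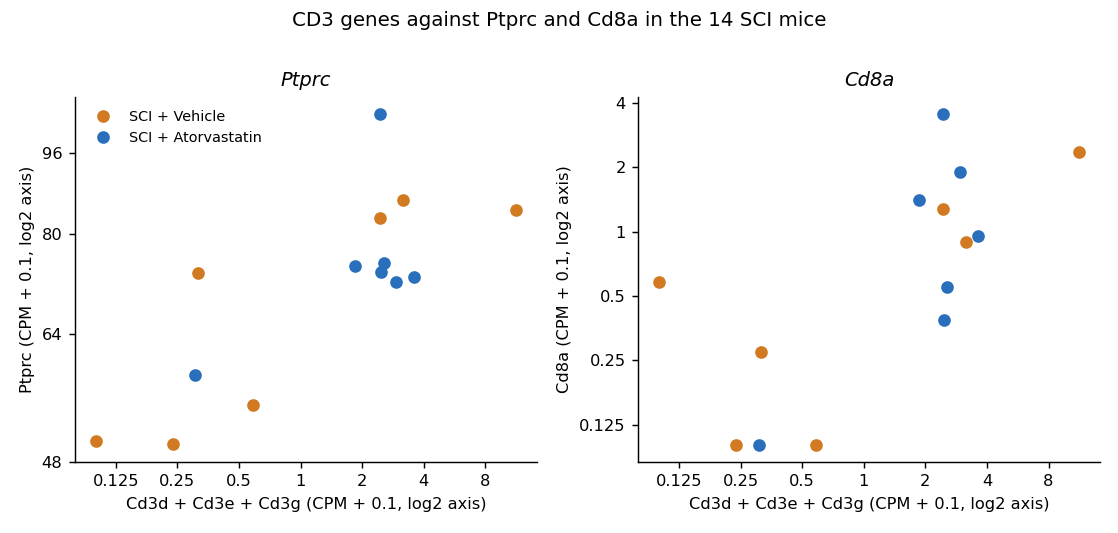
Ptprc (left) and Cd8a (right) against the summed level of Cd3d, Cd3e and Cd3g in the 14 SCI mice, in TMM-normalized CPM + 0.1 on log2 axes, with a point per mouse. Mice with CD3 levels below 0.5 CPM have Ptprc from 49.9 to 73.2 CPM, and the others from 71.8 to 104.8 CPM.

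Genes whose levels were most like the CD3 sum among 15929 genes tested were Sf3b1, a splicing factor subunit (r = 0.903), Tcirg1, a proton pump subunit (r = 0.891), the interferon-inducible gene Mndal (r = 0.880), the chemokine gene Ccl8 (r = 0.880) and the pseudogene Slfn10-ps (r = 0.879). These are descriptions over 14 mice from the same libraries. Among the same genes Cd2 ranked 855, Cd5 2194, Cd4 2278, Cd79b 4196 and Cd8b1 6875 by likeness to the CD3 sum.

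Other lymphocyte genes were taken from 6 lists and tested in the same fits. Against the controls, 22 of the 44 tested were upregulated in SCI + Vehicle and 29 of 44 in SCI + Atorvastatin (edgeR), and none was lower, against 19.8% and 24.9% of all genes called higher. The counts of 44 are not independent of the filter, which a gene can pass through an SCI group alone. Without the gene filter 26 of 90 and 44 of 90 were called, against 23% and 32.9% of all genes. Where every condition had to have a mean TPM above 1, 11 were tested. Of these, 1 was called higher in SCI + Vehicle and 3 in SCI + Atorvastatin, against 10% and 14.1% of 12559 genes. With the replicate number as a block 0 of 44 were called in either contrast. With either control left out, some of the genes called in each contrast were lower, and counts that rest on a lone control are not given. In SCI + Vehicle 1 was also called lower in DESeq2, with its size factors and with all groups in 1 fit. Between the treatments 0 of 44 were called in edgeR, DESeq2 or limma, and 0 had an unadjusted p below 0.05 in edgeR. In T cell receptor signalling 5 of 12 genes rose in SCI + Vehicle and 8 of 12 in SCI + Atorvastatin, and 5 of 19 and 10 of 21 without the gene filter. Fyb, an adaptor of T cells and myeloid cells, had 69 and 232 counts in the controls and 1286 to 3157 in the SCI mice. Its log2 fold change was 3.94 in SCI + Vehicle (SE 0.44, adjusted p = 0.000168, edgeR) and 4.06 in SCI + Atorvastatin (SE 0.38, adjusted p = 4.55e-05, edgeR). Lck, the kinase that acts first after receptor binding, had 9 to 78 counts in the SCI mice, and Cd247, the zeta chain of the receptor complex, 0 to 56, with none of either in the controls. Lck rose in both groups (adjusted p = 0.00336 and 0.00488 in edgeR), and Cd247 rose in SCI + Atorvastatin (adjusted p = 0.0021) with 10 to 56 counts, while SCI + Vehicle had 0 to 41 (adjusted p = 0.178, edgeR). The TPM go against these counts for Cd247, listing control replicate 2 at 15.3 TPM and the highest SCI mouse at 6.27 TPM, and limma on log2(TPM + 1) gave a log2 fold change of -0.21 in SCI + Atorvastatin (adjusted p = 0.887). Ptpn22 and Lcp2 also rose in both groups, and Lat in SCI + Atorvastatin. Among the listed genes not called, some had log2 fold changes below 0 in both contrasts, in this list and in others.

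In the costimulation and checkpoint list 4 of 7 genes rose in SCI + Vehicle and 5 of 7 in SCI + Atorvastatin. In the same filtered fits 19.8% and 24.9% of all genes were called higher. Without the gene filter 5 of 13 and 7 of 13 rose, against 16.4% and 22.4% of all genes. Of all genes with 20 to 50 mean SCI counts and none in the controls, 71% and 93.7% were called. Lag3, an inhibitory receptor of T cells that microglia also express, had 295 to 532 counts in the SCI mice and none in the controls, at least 135-fold higher in SCI + Vehicle and at least 124-fold in SCI + Atorvastatin. Pdcd1 (PD-1) was at least 20.3-fold and 21.8-fold higher, and Btla and Tnfrsf4 rose in both groups as well. In the B cell and plasma cell list 4 of 10 and 6 of 10 genes rose, and 6 of 20 and 9 of 20 without the gene filter. Cd22, an inhibitory receptor of B cells also made by microglia, led the list with 221 to 611 counts and none in the controls, at least 138-fold and 159-fold higher. Blnk, Cd37 and Fcer2a rose in both groups. Cd79a rose in SCI + Atorvastatin (at least 4.28-fold, adjusted p = 0.0155, edgeR), where its 4 to 31 counts were of the order of Cd79b. The genes with the most counts in these lists thus included ones that microglia share. The microglia or macrophage list itself summed to 96.3 and 138 CPM in the controls and to 915 to 2206 CPM in the SCI mice, and its part in these calls was not tested.

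In the NK and cytotoxic list 1 of 2 genes rose in SCI + Vehicle (Ccl5, a chemokine) and 2 of 2 in SCI + Atorvastatin (Ccl5 and the granule gene Nkg7). The other 12 listed genes did not pass the filter. In the unfiltered fits 1 of 14 and 6 of 14 rose, against 16.4% and 22.4% of all genes called higher. Among subset factors and cytokines 2 of 4 rose in each group, the cytokine receptor genes Il7r and Il2rb. Unfiltered, 4 of 12 rose in SCI + Vehicle and 4 of 10 in SCI + Atorvastatin. In the homing list 6 of 9 rose in each, and 5 of 12 and 8 of 12 without the gene filter. Among the 6 were the integrin gene Itgal (57 to 312 counts), the chemokine genes Ccl19 and Cxcl10, and the receptor gene Cxcr6. None of these named genes had a count in a control. Ccl21a, a chemokine that guides T cells into lymphoid tissue, had 0 counts in all 16 mice, though some SCI mice had TPM above 0. The haemoglobin genes Hbb-bs, Hbb-bt, Hba-a1 and Hba-a2, of a family of near-identical copies, also had 0 counts in every mouse and TPM above 0 in many, so that 0 counts do not show absence for such genes. The constant regions of the T cell receptor and of the immunoglobulins were not analysed here.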

How the data were processed

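Spinal cord RNA of 16 mice was sequenced with a stranded total RNA kit. Per the labels and the paper's methods, reads were trimmed by the authors (Trimmomatic 0.38), mapped to mm10 (STAR 2.5.4b) and assigned to genes (RSEM 1.3.1). They deposited whole-number counts, not normalized, and TPM, which are scaled by gene length and library. The strand setting and the step behind whole-number counts are not given in the sources used here. Groups came from sample titles, and replicates are separate mice.

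Each pair of groups was fitted with edgeR 4.0.16 in R 4.3.3 (TMM, quasi-likelihood) on 16091 genes with a mean TPM above 1 in a condition. Cd3d and Cd8a, which did not pass, come from the fit without a gene filter, of all genes with any count in the compared mice. CPM are counts per 1000000 counts of the library, and correlations use TMM-normalized CPM. Alternatives were DESeq2 1.42.0 and its size factors, 1 fit of all groups, other filters and thresholds, a block for the replicate number, limma 3.58.1 on log2(TPM + 1) or log2(TPM + 0.1), and each mouse left out. Methods were tested on simulated data. Figures were drawn with matplotlib 3.10.9.

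The lymphocyte genes and the lists were chosen with earlier results of these data known. Named beside the 9 genes were called genes of the 6 lymphocyte lists (the smallest p, at most 5 per list and comparison), list genes with 0 counts in all mice, marker genes needed for a level, and the 5 genes most like the CD3 sum. Single-gene results of some listed lymphocyte genes are not reported here.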

Additional observations from a re-analysis of the deposited data

Results flagged for a closer look

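In groups of 7 mice, a mouse far from the others was looked for in 24 sets of values (the 9 genes and 3 sums in each SCI group), and 7 such sets were found. By chance about 1 in 20 would be if the values followed a normal distribution. CPM with many values at 0 do not, so that the number found cannot be set against that rate. A sum is also not independent of its genes. SCI + Vehicle replicate 1 was the highest for Cd3e (5.67 CPM, the others 0 to 0.836), Cd3g (4.83 CPM, the others 0 to 1.38), the CD3 sum (11.7 CPM, the others 0 to 3.13) and the sum of the 9 genes (23.7 CPM, the others 1.01 to 9.47). SCI + Vehicle replicate 7 was the highest for Cd79b (4.97 CPM, the others 0 to 2.01). SCI + Atorvastatin replicate 2 was the highest for Cd3d (1.59 CPM, the others 0 to 0.291), and SCI + Atorvastatin replicate 3 for the sum of the CD8 genes (4.62 CPM, the others 0.530 to 2.20).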

How the results depend on the processing

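In SCI + Vehicle vs. Uninjured Control the number of lymphocyte genes called was 1 of the 7 tested, against 29.4% of all genes. It was 2 with DESeq2 (Cd3g and Cd4, against 37.3% of all genes) and 3 with all groups in 1 fit (40.9%). With limma it was 1 on log2(TPM + 0.1) (30.6%) and 0 on log2(TPM + 1) (27.7%). The replicate block (0.0994%) and an adjusted p below 0.01 (15.8%) also gave 0. With any vehicle mouse left out it was 1, Cd4 each time, against 23.9% to 29.9% of all genes. With a control left out Cd4 lost its call, and the sign of Cd5 depended on which control remained. In SCI + Atorvastatin vs. Uninjured Control it was 5 of the 7, against 38.9% of all genes, and 5 with DESeq2 (44.8%). It was 3 with all groups in 1 fit (44.3%). With limma it was 3 on log2(TPM + 0.1) (41.8%) and 2 on log2(TPM + 1) (39.3%). It was 3 at an adjusted p below 0.01 (Cd2, Cd3g and Cd4, against 25.7%) and 0 with the replicate block (0%). It was 4 to 5 with an atorvastatin mouse left out, all called higher, against 34.7% to 35.9% of all genes. With a control left out Cd3e and Cd8b1 lost their calls, and the sign of Cd5 again depended on the control that remained. Between the treatments it was 0 in every alternative. No value was obtained under the filter that asks every condition for a mean TPM above 1, since none of the 9 passes it. The causes of these shifts were not tested.

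Replicate numbers did not pair the mice: same-numbered SCI mice correlated at -0.192 to 0.111, and 0 of 7 correlated best with their own number. The block, which leaves few residual degrees of freedom against 2 controls, called 16 of all 16091 genes in SCI + Vehicle and 0 in SCI + Atorvastatin vs. Uninjured Control.

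Of the 8 relations with the CD3 sum, 2 passed, and 4 did so without centring by group, 3 on CPM without a logarithm (Cd5, r = 0.859, Cd8a and the microglia or macrophage list, but not Ptprc, adjusted p = 0.0528 by permutation), 3 on log2(CPM + 0.5) (Cd8a, Ptprc and the microglia or macrophage list), 0 without the 2 farthest mice, and 0 to 3 with a mouse left out.

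Some single genes changed direction. Between the treatments the log2 fold change of Cd3e was 0.039 in limma on log2(TPM + 1), 0.78 on log2(TPM + 0.1) and 1.62 with the replicate block, that of Cd5 was 0.14 with the block, and that of Cd79b was 0.53 in limma on log2(TPM + 0.1). With a mouse left out the range was -1.03 to 1.08 for Cd3e and -1.38 to 0.45 for Cd79b. Against the controls, Cd5 in SCI + Vehicle was 2.43 with the block and ranged from -3.17 to 8.0 with a mouse left out, and in SCI + Atorvastatin from -3.95 to 7.27. Cd247 in SCI + Atorvastatin was -0.21 in limma on log2(TPM + 1).

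Counts at or near 0 and 2 controls with few genes detected limit every contrast with the Uninjured Control group, and the spread between vehicle mice limits that between the treatments.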
